A study of Rattus norvegicus with 26 samples.

Results

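This set of 49 genes encodes the voltage-gated sodium channels, the voltage-gated calcium channels, the calcium release channels of the endoplasmic reticulum and the calcium pumps, measured in the dentate gyrus (DG) of the rat. The rule for members used gene names: the Scn genes of alpha and beta subunits, the Cacna, Cacnb and Cacng genes, the ryanodine receptors (Ryr), the inositol trisphosphate receptors (Itpr) and the calcium ATPases (Atp2a, Atp2b). They are 49 of 17910 genes measured. A minimum mean of 5 normalized counts left 46 members, which were tested among 15595 genes. Cacna1f, Scn7a and Scn11a, channels known from retina, glia and pain fibres, fell under this minimum with means of 4.43, 2.53 and 1.07. Atp2a1, Cacna2d4, Cacng1 and Scn10a were not analysed here.

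All 26 animals were male F344 rats of about 6 months, and 1 library was made per rat from the DG of a single hemisphere. The Veh group (n = 10) received vehicle by gavage on 5 consecutive days of every other week. The Dox group (n = 8) received doxorubicin, an anthracycline used in chemotherapy, as weekly intraperitoneal injections of 2 mg/kg over 4 weeks. The Dox + ABT group (n = 8) received the same doxorubicin and, by gavage, 12 mg/kg of ABT-263, a senolytic drug that inhibits proteins of the Bcl-2 family, on 5 consecutive days of every other week. The study's methods place the Veh rats in an ongoing study of brain aging, and they describe no group given ABT-263 without doxorubicin. Nor do they describe saline injections of Veh rats or gavage of Dox rats. After treatment the study tested its animals in a water maze and in inhibitory avoidance with a mild shock.

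Voltage-gated sodium channels open when a neuron is depolarized and carry the rising phase of the action potential. Their alpha subunits form the pore, and their beta subunits set gating and placement in the membrane. Voltage-gated calcium channels turn depolarization into calcium entry, release channels add calcium from the endoplasmic reticulum, and pumps of the endoplasmic reticulum (SERCA) and of the plasma membrane (PMCA) remove it again. Several Cacng genes are known less as calcium channel subunits than as transmembrane AMPA receptor regulatory proteins (TARPs), which carry AMPA receptors to the synapse. Granule cells, the principal neurons of the DG, are known for sparse firing.

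The libraries held an estimated 10163364 to 24326700 reads, with overlapping ranges in the groups. Of the granule cell markers, Prox1, C1ql2, Dsp and Calb1 were present and Lct was near 0. Markers of neurons of the neighbouring CA fields summed to 3621 to 13440 in Veh, 3772 to 13541 in Dox and 3895 to 19040 in Dox + ABT. The libraries also differed along an axis within the groups. It was found after each group's mean had been removed, so that a rat's place on it is relative to its own group. A principal component of the rats' deviations from their group carried 28.4% of that variance, and its largest gap set Veh 10 and Veh 11 apart from the other 24 libraries. A more even split of the same component, chosen after the data had been seen, gave 16 libraries of a first kind (4 Veh, 5 Dox and 7 Dox + ABT) and 10 of a second kind (6 Veh, 3 Dox and 1 Dox + ABT). Ribosomal protein genes took 0.645% to 1.27% of all values in the first kind and 1.34% to 2.16% in the second. Their median share was 1.60% among Veh, 1.16% among Dox and 1.05% among Dox + ABT rats. With a single Dox + ABT library of the second kind, kind of library and that treatment cannot be fully separated, and values are therefore also given with the ribosomal share as a covariate or within the first kind. In bulk tissue, fewer cells of a type and less RNA per cell cannot be told apart.

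Cacng4 and Cacna1s were lower and Scn3b was higher in Dox than in Veh. A gene was called at an unadjusted p under 0.01, the threshold of the study's methods, in a limma fit of log2(normalized count + 1), and adjusted p-values were by Benjamini-Hochberg over the 15595 genes. These 3 members (6.52%) stood beside 2.87% of all tested genes, 1 being higher (1.02% of all tested genes) and 2 lower (1.85%). No member had an adjusted p under 0.05, which 0.0192% of all tested genes had, and 8 members had an unadjusted p under 0.05 (10.2% of all tested genes). In Dox + ABT against Veh, Scn1a, Ryr1 and Ryr3 were higher and Cacng2, Cacng3, Cacng4, Cacnb1 and Cacna1s were lower. These 8 members (17.4%) stood beside 7.84% of all tested genes (3.89% higher, 3.95% lower), and 13 members had p under 0.05 (22.5% of all tested genes). Atp2b3 was the single member called between Dox and Dox + ABT, 2.17% of members beside 4.03% of all tested genes (2.32% higher in Dox, 1.71% lower), and 7 members had p under 0.05 (12.7% of all tested genes). In limma no member had an adjusted p under 0.05 in these comparisons either, and their smallest adjusted values were 0.109 and 0.220. The comparisons share the Veh, Dox or Dox + ABT rats, so that a gene called more than once was not measured independently.

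The median log2 difference of the members was 0.12 in Dox and 0.13 in Dox + ABT against Veh, beside 0.00 over all tested genes, and it was 0.00 between Dox and Dox + ABT. With the ribosomal share as a covariate the medians against Veh were 0.06 and 0.00. The members called were then 3 in Dox against Veh (2.98% of all tested genes), 1 in Dox + ABT against Veh (2.52%) and 1 between the treated groups (4.94%). With the even split as a covariate they were 3 (2.70%), 0 (1.37%) and 0 (4.76%). Within the first kind of library they were 4 (4.76%), 0 (1.10%) and 1 (8.21%), and within the second kind 5 were called in Dox against Veh (3.57%). None of those in the first kind had been called over all rats in the same comparison. They were Cacna1h (0.38), Atp2b4 (-0.59), Cacna2d1 (-0.36) and Cacnb4 (-0.57) in Dox against Veh and Cacna1h (0.33) between the treated groups. Of those in the second kind 1, Cacng4, had been called over all rats in Dox against Veh, and the others were Atp2b3 (0.45), Cacnb2 (0.32), Ryr2 (0.41) and Scn2a (0.47). Atp2b4, Cacna2d1 and Cacnb4 were named there after their values had been seen. Without Veh 10 and Veh 11 the counts were larger, 11 members in Dox (8.48%) and 14 in Dox + ABT (19.5%) against Veh and 1 between the treated groups (4.52%), and 4 members in Dox and 14 in Dox + ABT had an adjusted p under 0.05, as 254 and 3008 of all 15595 tested genes did. The 11 in Dox were Cacng4, Cacna1s, Cacng3, Ryr2, Ryr3, Cacna1b, Cacna1c, Cacna1e, Scn3a, Scn4a and Scn8a, of which Cacng4, Ryr2, Cacna1e and Scn3a had the adjusted p under 0.05, and Scn3b was not among them, at 0.30 (p = 0.014). The 14 were the 8 called over all rats with Ryr2, Cacna1b, Cacna1d, Cacna1e, Cacna1i and Scn8a. Of the 8 Veh libraries then left 6 were of the second kind, beside 1 of 8 Dox + ABT libraries. The expression values themselves had set Veh 10 and Veh 11 apart. The p-values and adjusted p-values without them, here and below, do not allow for that choice. With those 2 libraries kept and their difference fitted as a covariate, 13 (8.83%), 16 (20.1%) and 1 (4.83%) were called, and with a weight for each library 17 (20.2%), 19 (34.0%) and 3 (10.3%). Under quantile normalization 2 (2.83%), 6 (7.84%) and 0 (4.09%) were called, and the 3 higher and 5 lower calls in Dox + ABT became 4 higher and 2 lower. A fit of the compared groups alone called 1 (2.02%), 7 (8.14%) and 1 (4.51%), and an exact permutation test over the rats, two-sided, called 1 (2.16%), 4 (5.81%) and 1 (4.48%).

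**Figure D1:**
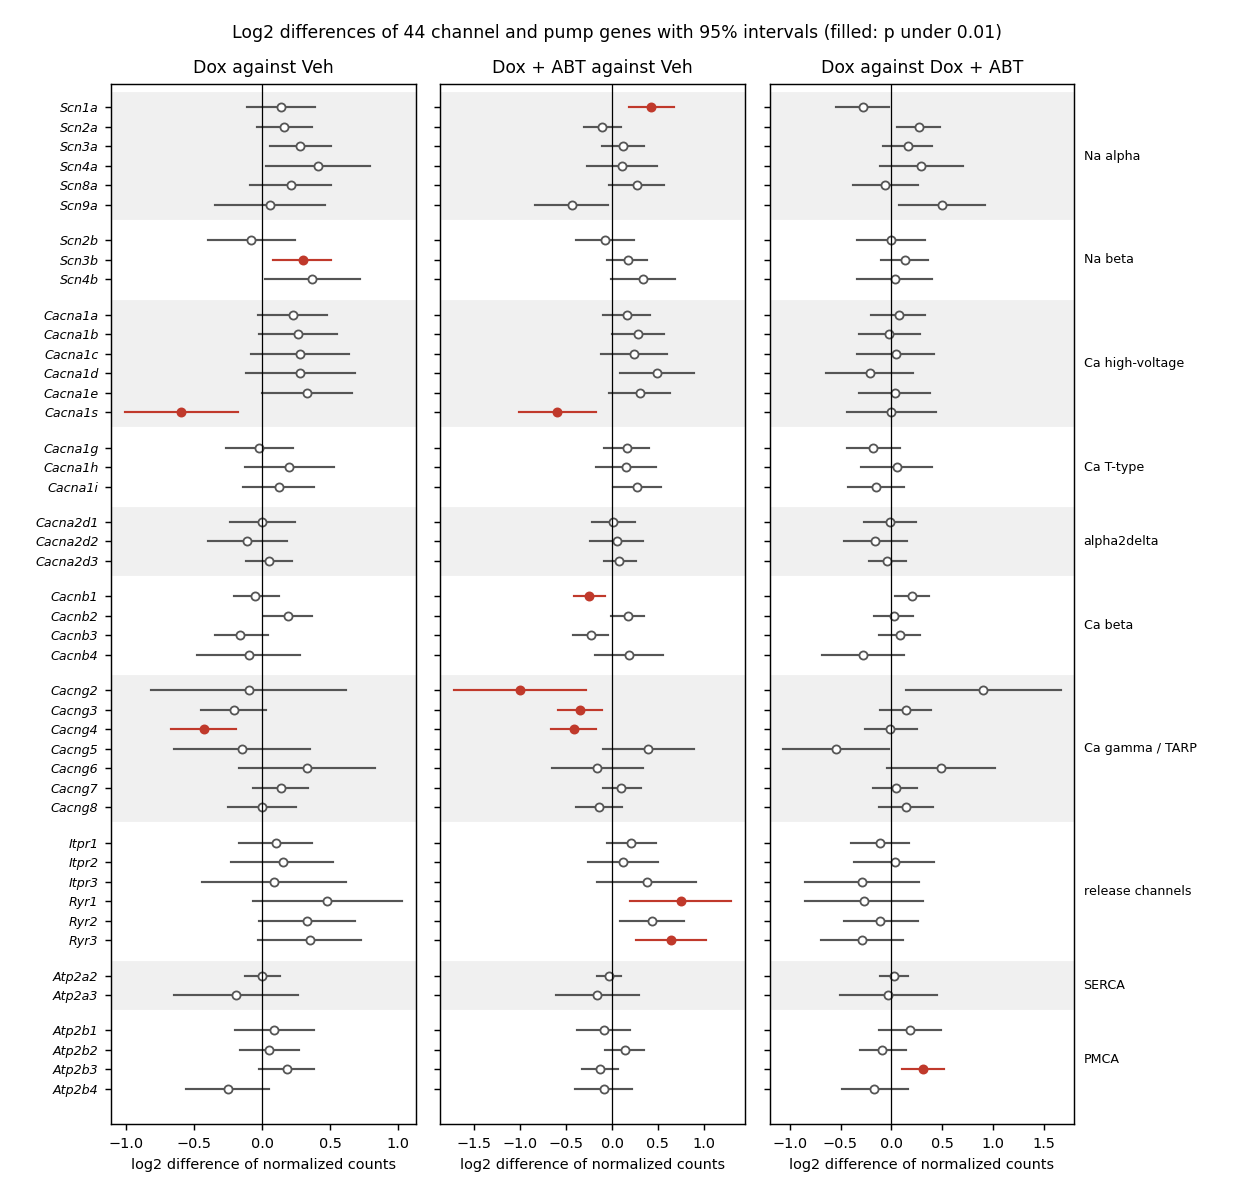
Log2 differences of 44 of the 46 tested members (points) with 95% confidence intervals (lines), grouped by role, for Dox against Veh, Dox + ABT against Veh and Dox against Dox + ABT; filled red points have p under 0.01. The 6 release channels lie right of 0 in the first and second panels, and Cacng4 and Cacna1s are filled left of 0 in both.

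All 7 tested alpha subunits of sodium channels lay above 0 in Dox against Veh, as did 7962 of all 15595 tested genes. The 7 had a median log2 difference of 0.21, and none was called. Scn1a, known as the channel of fast-spiking interneurons, had normalized counts of 700 to 1272 in Veh (median 939), 824 to 1254 in Dox (median 1124) and 1038 to 1607 in Dox + ABT (median 1275). All 8 Dox + ABT rats lay above the Veh median and 4 above every Veh rat, while the Dox rats stayed within the Veh range. Scn1a was higher in Dox + ABT than in Veh by 0.42 ± 0.12 (log2, SE; limma p = 0.00160, adjusted p = 0.109), and Dox against Veh gave 0.14 (p = 0.258). The difference in Dox + ABT was 0.27 (p = 0.0109) with the ribosomal share as a covariate, and within the first kind of library it was 0.10 (p = 0.373). Of 7 interneuron markers, Gad1 (0.25) and Gad2 (0.27 on the log2 scale) were also called higher in Dox + ABT. Slc32a1 gave -0.04, Pvalb -0.30 (p = 0.209), Sst 0.11 (p = 0.410), Vip 0.41 (p = 0.0822) and Npy 0.44 (p = 0.446), none of them called. The median of the list was 0.25. After the ribosomal share was fitted Gad1 was 0.16 (p = 0.0518) and Gad2 0.17 (p = 0.0535), and neither was called. The list summed to 5757 to 7851 in Veh, 5351 to 7726 in Dox and 6503 to 8361 in Dox + ABT, and its part in the Scn1a difference was not tested.

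Scn2a, known as a channel of excitatory neurons, had the highest normalized count of the alpha subunits in Veh, with 4098 to 5644 in Veh (median 4979), 4318 to 8639 in Dox (median 5108) and 4078 to 5285 in Dox + ABT (median 4502). The value of 8639 was that of Dox 5, and Dox against Dox + ABT gave 0.27 (p = 0.0173). Scn3a, known from the developing brain, had 484 to 926 in Veh (median 630), 675 to 1030 in Dox (median 791) and 627 to 830 in Dox + ABT (median 719). All 8 Dox rats lay above the Veh median, and the difference of 0.28 (p = 0.0161) did not pass. Without Veh 10 and Veh 11, which the values themselves had set apart, it was 0.38 (adjusted p = 0.049) and was called. Its values were deposited on a pair of rows that differed: the row with 41.9% of its counts gave 0.70 in Dox against Dox + ABT (p = 0.00377), and the other gave -0.13. That row was the only member row called there, beside 3.25% of all rows. In the other comparisons 3 member rows (2.36% of all rows) and 11 (6.39%) were called. How reads shared by transcripts, or by related genes such as Scn1a, Scn2a, Scn3a and Scn9a, were divided is not known here, so differences between rows are uncertain. Scn8a, a channel of the axon initial segment named after its values had been seen, had 2791 to 6907 in Veh and 4302 to 5871 in Dox + ABT. Scn4a, known from skeletal muscle, and Scn9a, from sensory neurons, had means of 82.9 and 68.9, and neither was called. Scn4a gave 0.41 (p = 0.0368) in Dox against Veh, and 0.53 (p = 0.00755) without Veh 10 and Veh 11, which was called. Scn9a gave -0.44 (p = 0.0341) in Dox + ABT against Veh and 0.06 in Dox against Veh.

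Scn3b, a beta subunit that binds the pore without a covalent bond, was the member called higher in Dox. It had 7611 to 10703 in Veh (median 9809), 8767 to 18184 in Dox (median 11520) and 8839 to 11732 in Dox + ABT (median 11063). Of the 8 Dox rats 5 lay above every Veh rat, with Dox 5 and Dox 7 highest, and the others lay within the Veh range. Dox exceeded Veh by 0.30 ± 0.11 (log2, SE; 1.23-fold; limma p = 0.00897, adjusted p = 0.335), and by 0.30 (p = 0.00819) with the ribosomal share as a covariate. Without Dox 5 the difference was 0.21 (p = 0.031), and leaving out any 1 of 16 rats ended the call. Within the first kind of library it was 0.15 (p = 0.168) and within the second 0.48 (p = 0.0288). Dox + ABT against Veh gave 0.17 (p = 0.129), with 5 of 8 rats above every Veh rat, and Dox against Dox + ABT gave 0.13 (95% interval -0.10 to 0.36). Scn4b, the subunit known for resurgent current, gave 0.37 (p = 0.0409) in Dox and 0.34 (p = 0.0566) in Dox + ABT. Scn2b gave -0.08 in Dox and was not called.

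The pore subunits of high-voltage-activated calcium channels lay above 0 in both treated groups, except Cacna1s. Cacna1a (P/Q-type), Cacna1b (N-type), Cacna1c and Cacna1d (L-type) and Cacna1e (R-type) gave 0.23, 0.26, 0.28, 0.28 and 0.33 on the log2 scale in Dox. In Dox + ABT they gave 0.16, 0.28, 0.24, 0.49 and 0.30, and none was called. After the share of ribosomal protein genes was fitted, Cacna1b, Cacna1c, Cacna1d and Cacna1e gave 0.14, 0.12, 0.12 and 0.19 in Dox. The values of Cacna1a to Cacna1e in Dox + ABT were then 0.03, 0.05, -0.04, 0.21 and 0.04. Without Veh 10 and Veh 11 they were larger, and Cacna1b with 0.42 (adjusted p = 0.0216), Cacna1d with 0.66 (adjusted p = 0.0174) and Cacna1e with 0.49 (adjusted p = 0.0141) were called in Dox + ABT. In Dox, Cacna1b (0.40), Cacna1c (0.46) and Cacna1e (0.52) were then called, with adjusted p of 0.0794, 0.101 and 0.0454. Cacna1d, named after its values had been seen, had 2132 to 3282 normalized counts in the first kind of library and 965 to 2264 in the second. This gene was among those from which the kinds were found. Cacna1a, a main channel of transmitter release, had 2624 to 4859 in Veh (median 3752), 3444 to 5567 in Dox (median 4426) and 2863 to 5374 in Dox + ABT (median 4383), and the groups overlapped.

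Cacna1s, the L-type channel known from skeletal muscle, was low throughout and lower in both treated groups. It had 14.9 to 33.0 in Veh (median 25.1), 9.26 to 27.0 in Dox (median 15.7) and 11.6 to 20.4 in Dox + ABT (median 16.4). In Dox 7 of 8 rats lay below the Veh median, in Dox + ABT all 8 did, and 3 of each lay below every Veh rat. The log2 difference was -0.60 ± 0.20 in Dox (limma p = 0.00641, adjusted p = 0.307) and -0.60 ± 0.20 in Dox + ABT (p = 0.00637, adjusted p = 0.116), on a log2(value + 1) scale that understates changes of low genes. It was -0.58 (p = 0.00968) and -0.57 (p = 0.0145) with the ribosomal share as a covariate, and -0.45 (p = 0.167) and -0.42 (p = 0.165) within the first kind of library, where neither was called. Leaving out any 1 of 8 rats ended the call in Dox, at most with p = 0.0206 without Dox 10 (-0.49). The muscle markers summed to 83.5 to 224 in Veh, 119 to 161 in Dox and 118 to 213 in Dox + ABT. Of these only Myh6 was called, higher in Dox + ABT than in Veh (0.74, and 0.65 with the ribosomal share, p = 0.0166). The others tested, Actn3 and Myh7, gave -0.39 (p = 0.0279) and -0.10 there, and all 8 rats lay below the Veh median of Actn3. The part of the muscle markers in the Cacna1s difference was not tested.

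The T-type genes, whose channels open at low voltage and are known to support burst firing, were not called over all rats. Cacna1h had 2905 to 5132 in Veh (median 4241), 3001 to 7308 in Dox (median 5071) and 3253 to 5703 in Dox + ABT (median 4361). In Dox 3 rats lay above every Veh rat, and the difference was 0.20 (95% interval -0.13 to 0.53). Within the first kind of library Cacna1h gave 0.38 (p = 0.00918) in Dox against Veh and 0.33 (p = 0.00925) in Dox against Dox + ABT, which were called. Cacna1g gave -0.02 in Dox and 0.16 in Dox + ABT. Cacna1i gave 0.12 and 0.27 (p = 0.0434). Its row with 42.8% of the counts was called in Dox + ABT (0.55, p = 0.00285), while the row with 55.7% gave 0.07.

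The alpha2delta subunits, which carry the channels to the membrane, were not called over all rats. The products of Cacna2d1 and Cacna2d2 are known as the targets of gabapentin. Cacna2d1, Cacna2d2 and Cacna2d3 gave 0.00, -0.11 and 0.05 in Dox and 0.01, 0.05 and 0.08 in Dox + ABT against Veh. Within the first kind of library Cacna2d1 gave -0.36 (p = 0.00617) in Dox against Veh, which was called. Cacna2d3 had 1098 to 1576 in Veh (median 1331), 1221 to 1680 in Dox (median 1309) and 1050 to 1583 in Dox + ABT (median 1468), with 95% intervals of the difference of -0.12 to 0.22 and -0.09 to 0.26. Cacna2d2 had 234 to 538 in Veh (median 308), 254 to 366 in Dox (median 300) and 239 to 467 in Dox + ABT (median 351), and its Dox values lay within the Veh range.

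Of the cytoplasmic beta subunits, which bring the pore to the membrane, Cacnb1 was lower in Dox + ABT than in Veh. It had 2700 to 4117 in Veh (median 3509), 2905 to 3552 in Dox (median 3328) and 2591 to 3149 in Dox + ABT (median 2856). All 8 Dox + ABT rats lay below the Veh median and 4 below every Veh rat, and the Dox rats lay within the Veh range. The difference was -0.25 ± 0.08 (limma p = 0.00488, adjusted p = 0.114), and -0.15 (p = 0.0307) with the ribosomal share as a covariate. Within the first kind of library Veh had 2700 to 2944 and Dox + ABT 2591 to 3149, a difference of -0.02 (p = 0.81). Dox exceeded Dox + ABT by 0.20 (p = 0.0255), which was not called, with 6 of 8 Dox rats above every Dox + ABT rat. Cacnb3 had 3882 to 5961 in Veh (median 4813), 3244 to 5074 in Dox (median 4491) and 3353 to 4557 in Dox + ABT (median 4085), and Dox + ABT against Veh gave -0.23 (p = 0.0190) with all 8 rats below the Veh median. Cacnb2 had 444 to 631 in Veh (median 500), 531 to 655 in Dox (median 591) and 483 to 691 in Dox + ABT (median 584), and in Dox all 8 rats lay above the Veh median (0.19, p = 0.0431). Cacnb4 gave -0.10 and 0.18, and neither passed. Within the first kind of library it gave -0.57 (p = 0.00272) in Dox against Veh, which was called.

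Cacng4 was called lower in both treated groups. Its product is a TARP. It had 1116 to 2132 in Veh (median 1706), 885 to 1436 in Dox (median 1228) and 1064 to 1698 in Dox + ABT (median 1196). All 8 Dox and all 8 Dox + ABT rats lay below the Veh median, and 2 of each lay below every Veh rat. The log2 difference was -0.43 ± 0.12 in Dox (0.741-fold; limma p = 0.00105, adjusted p = 0.170) and -0.42 ± 0.12 in Dox + ABT (0.746-fold; p = 0.00127, adjusted p = 0.109). Between the treated groups it was -0.01 (95% interval -0.26 to 0.25). The ribosomal share as a covariate left -0.35 (p = 0.000662) in Dox and -0.27 (p = 0.00796) in Dox + ABT. Within the first kind of library it was -0.23 (p = 0.0636) and -0.19 (p = 0.0968). In the second kind the 3 Dox libraries (1235 to 1436) lay below the 6 Veh libraries (1630 to 2132), a difference of -0.47 (p = 0.000605). No single left-out rat ended either call.

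Some markers of glia, endothelium and granule cells were also called against Veh. In Dox against Veh, Gfap, Aqp4 and Aldh1l1 of 6 astrocyte markers were lower (-0.75, -0.43 and -0.43), while Gja1, Slc1a2 and Slc1a3 gave 0.06, -0.08 and 0.03, and the list summed to 39437 to 60762 in Veh, 33584 to 43142 in Dox and 38074 to 55080 in Dox + ABT. Of 5 oligodendrocyte markers 2 were lower, among them Cnp (-0.39), with sums of 39845 to 112512 in Veh, 43401 to 66838 in Dox and 46809 to 99070 in Dox + ABT. Of 5 microglia markers Aif1, Cx3cr1 and Itgam were lower (-0.61, -0.64 and -0.51), with sums of 2269 to 4523 in Veh, 1857 to 3187 in Dox and 2078 to 3592 in Dox + ABT. Of 3 tested endothelial markers Kdr was called higher (0.81), while Flt1 (0.52, p = 0.0606) and Cldn5 (0.21, p = 0.393) were not called. Their sums were 723 to 2906 in Veh, 1212 to 2424 in Dox and 726 to 2001 in Dox + ABT. In Dox + ABT against Veh the astrocyte marker Aldh1l1 (-0.47, p = 0.00175), the microglia marker Csf1r (-0.48, p = 0.00199) and the oligodendrocyte precursor marker Cspg4 (-0.35, p = 0.00438) were called lower, and no oligodendrocyte marker was called. Other members of these lists lay above 0: the astrocyte markers Slc1a3 (0.25) and Gja1 (0.18) lay above the Veh median in all 8 rats, Aqp4 gave 0.02, and the precursor marker Pdgfra gave 0.11, none of them called. The other astrocyte markers Gfap and Slc1a2 gave -0.37 and -0.15, and the precursor marker Olig2 -0.22. The granule cell marker C1ql2 was also called lower there (-0.46, p = 0.000697). The other granule cell markers tested were not called, with Prox1 at 0.22 (7 of 8 rats above the Veh median), Calb1 at -0.07 and Dsp at -0.13. The granule cell markers summed to 8854 to 13397 in Veh, 9094 to 12294 in Dox and 8183 to 10836 in Dox + ABT, and those of oligodendrocyte precursors to 1740 to 2276 in Veh, 1675 to 2209 in Dox and 1433 to 2091 in Dox + ABT. After the ribosomal share was fitted, C1ql2 stayed called (-0.34, p = 0.00462), while Aldh1l1 (-0.35, p = 0.0113), Csf1r (-0.29, p = 0.0127) and Cspg4 (-0.28, p = 0.0219) in Dox + ABT and Cnp (-0.37, p = 0.0105) in Dox did not. The part of these lists in the Cacng4 differences was not tested.

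Cacng3 and Cacng2, which encode TARPs of forebrain synapses, were lower in Dox + ABT than in Veh. Cacng3 had 1519 to 2654 in Veh (median 2264), 1540 to 2459 in Dox (median 1712) and 1377 to 2022 in Dox + ABT (median 1671). All 8 Dox + ABT rats lay below the Veh median and 2 below every Veh rat, a difference of -0.35 ± 0.12 (limma p = 0.00565, adjusted p = 0.115). With the ribosomal share as a covariate it was -0.17 (p = 0.0373), within the first kind of library -0.09 (p = 0.337), and Dox against Veh gave -0.21 (p = 0.0792). Cacng2 had 917 to 3726 in Veh (median 1984), 792 to 7192 in Dox (median 1163) and 682 to 1250 in Dox + ABT (median 933). All 8 Dox + ABT rats lay below the Veh median and 3 below every Veh rat, and the 95% interval of the log2 difference was -1.72 to -0.28 (p = 0.00829, adjusted p = 0.120). The Cacng2 values divided by kind of library. The first kind held 682 to 1250, while in the second kind Veh had 1974 to 3726, Dox 2488 to 7192 and the Dox + ABT library 1148. Within the first kind Veh had 917 to 1161, Dox 792 to 1180 and Dox + ABT 682 to 1250, and Dox + ABT against Veh gave -0.18 (p = 0.184). Cacng2 is 1 of the 13667 genes from which the kinds were found, and so is every other member with a mean of at least 20.

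The promoters of Cacng2 and Cacng3 are shown because both genes were called lower in Dox + ABT. The 250 bases before the start of each gene are printed 5′ to 3′ on the strand of the gene, from RefSeq on the build GRCr8, which differs from the rn6 build of the deposited values. They lie at chr7:111577758-111578007 (minus strand) for Cacng2 and chr1:186632312-186632561 (plus strand) for Cacng3. Capitals mark matches to the GC box GGGCGG, to the E-box of letters CACGTG, to the TATA motif TATAAA or to the CRE core TGACG, each searched on both strands, and no match overlapped another in these stretches.
Cacng2: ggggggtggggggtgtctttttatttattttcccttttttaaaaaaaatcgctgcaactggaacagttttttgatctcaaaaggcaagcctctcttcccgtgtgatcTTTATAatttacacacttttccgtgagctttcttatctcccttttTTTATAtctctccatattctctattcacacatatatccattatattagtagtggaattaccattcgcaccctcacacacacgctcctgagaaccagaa
Cacng3: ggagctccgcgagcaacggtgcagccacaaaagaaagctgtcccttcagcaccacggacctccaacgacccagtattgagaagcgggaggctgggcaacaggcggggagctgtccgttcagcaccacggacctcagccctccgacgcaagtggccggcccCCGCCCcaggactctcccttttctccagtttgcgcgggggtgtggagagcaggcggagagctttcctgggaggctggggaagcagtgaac
The Cacng2 stretch holds 38.4% G and C and 2 TATA matches, and the Cacng3 stretch holds 64.8% G and C and 1 GC box. Over all 27457 promoters of this length the median was 52.0% G and C, and 32.4% held a GC box, 13.1% a TATA motif, 5.79% an E-box and 19.0% a CRE core. Of the 49 members 37 were matched to a promoter, with a median of 64.8% G and C, and 22 held a GC box, 3 a CRE core, 2 a TATA motif and 1 an E-box. Cacng4, Scn3b, Scn1a, Cacnb1 and Atp2b3 were not matched. Such matches are descriptions of letters.

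The other Cacng genes were not called. Cacng8, known as a main hippocampal TARP, had 1939 to 3360 in Veh (median 2867), 2244 to 3451 in Dox (median 2907) and 1978 to 3495 in Dox + ABT (median 2243), with differences of 0.00 and -0.14 from Veh. Cacng7 gave 0.14 and 0.10, and Cacng5, with a mean of 45.8, gave -0.15 and 0.39. Cacng6, named after its values had been seen, had 19.1 to 32.6 in Veh (median 29.0), 17.7 to 85.6 in Dox (median 29.2) and 16.6 to 37.7 in Dox + ABT (median 25.1). Dox 1 (84.4) and Dox 2 (85.6) stood above the other 24 rats, and the same rats had the highest Ryr1 values of all 26.

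**Figure D2:**
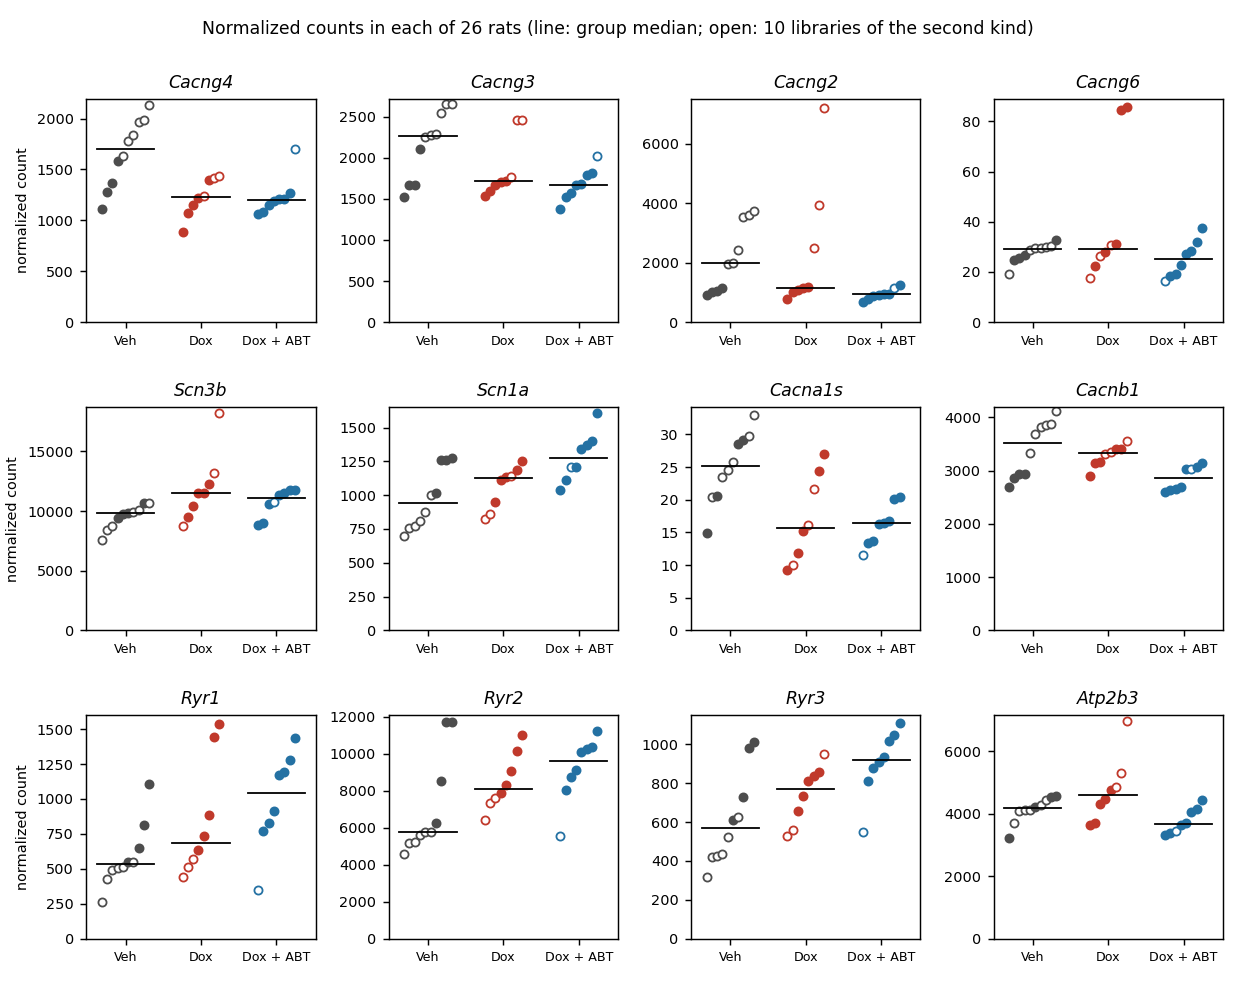
Normalized counts of 12 members in each rat, sorted within Veh (n = 10), Dox (n = 8) and Dox + ABT (n = 8); lines are group medians, filled points the 16 libraries of the first kind and open points the 10 of the second kind, and each vertical axis starts at 0. For Cacng2 the open Veh and Dox points, 1974 to 7192, lie above all filled points, 682 to 1250, while for Cacng4 every treated rat lies below the Veh line of 1706.

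All 6 release channels of the endoplasmic reticulum lay above 0 in both treated groups. Of all 15595 tested genes 7962 did so in Dox and 7781 in Dox + ABT. The 6 had a median log2 difference of 0.24 in Dox and 0.41 in Dox + ABT against Veh, and Ryr1 and Ryr3 were called in Dox + ABT. Ryr1, Ryr2, Ryr3, Itpr2 and Itpr3 fell together with rising ribosomal share, as given below. The medians were 0.11 and 0.17 with the ribosomal share as a covariate, with 5 of 6 above 0 in each, and none was called. Ryanodine receptors open in response to calcium itself. Ryr3, a receptor of neurons and smooth muscle, had 318 to 1011 in Veh (median 569), 526 to 951 in Dox (median 772) and 548 to 1110 in Dox + ABT (median 920). In Dox + ABT 7 of 8 rats lay above the Veh median and 3 above every Veh rat. The difference was 0.64 ± 0.18 (1.56-fold; limma p = 0.00172, adjusted p = 0.109), and both of its rows were called alone (0.62 and 0.67). With the ribosomal share as a covariate it was 0.37 (p = 0.0104), within the first kind of library 0.22 (p = 0.0942), and Dox against Veh gave 0.35 (p = 0.0668). Ryr1, known from skeletal muscle, had 261 to 1108 in Veh (median 531), 439 to 1536 in Dox (median 685) and 348 to 1440 in Dox + ABT (median 1045). In Dox + ABT 7 of 8 rats lay above the Veh median and 4 above every Veh rat, a difference of 0.75 ± 0.27 (limma p = 0.00947, adjusted p = 0.124). With the ribosomal share as a covariate it was 0.45 (p = 0.0711), within the first kind of library 0.49 (p = 0.0508), and leaving out any 1 of 16 rats ended the call (p up to 0.0252, without Dox + ABT 1). Dox against Veh gave 0.48 (p = 0.0851).

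Ryr2, the main ryanodine receptor of heart and brain, had 4591 to 11712 in Veh (median 5760), 6435 to 11018 in Dox (median 8075) and 5527 to 11193 in Dox + ABT (median 9605). All 8 Dox and 7 Dox + ABT rats lay above the Veh median, but Veh 10 and Veh 11 lay above all treated rats. The differences of 0.33 (p = 0.0613) and 0.43 (p = 0.0157) were not called, and without Veh 10 and Veh 11 they were 0.53 (p = 0.000475) and 0.64 (p = 5.91e-05). They were 0.17 (p = 0.0672) and 0.15 (p = 0.124) with the ribosomal share as a covariate. Within the first kind of library the 4 Veh rats had 6264 to 11712, the 5 Dox rats 7846 to 11018 and the 7 Dox + ABT rats 8042 to 11193, and these ranges overlapped. Within the second kind Dox against Veh gave 0.41 (p = 0.00200), which was called. The inositol trisphosphate receptors Itpr1, Itpr2 and Itpr3, which open downstream of G protein-coupled receptors, gave 0.10, 0.15 and 0.09 in Dox. In Dox + ABT they gave 0.21, 0.12 and 0.38, and none was called.

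The promoters of Ryr1 and Ryr3 are shown because these were the release channel genes called in Dox + ABT. They are printed in the same way, from chr1:93551306-93551555 (minus strand) for Ryr1 and chr3:120433466-120433715 (minus strand) for Ryr3 of GRCr8, with the same motifs in capitals.
Ryr1: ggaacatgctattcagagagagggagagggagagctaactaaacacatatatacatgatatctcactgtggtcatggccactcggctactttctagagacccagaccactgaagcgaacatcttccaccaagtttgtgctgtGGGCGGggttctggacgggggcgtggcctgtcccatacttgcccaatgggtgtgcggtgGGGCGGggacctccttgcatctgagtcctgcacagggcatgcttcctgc
Ryr3: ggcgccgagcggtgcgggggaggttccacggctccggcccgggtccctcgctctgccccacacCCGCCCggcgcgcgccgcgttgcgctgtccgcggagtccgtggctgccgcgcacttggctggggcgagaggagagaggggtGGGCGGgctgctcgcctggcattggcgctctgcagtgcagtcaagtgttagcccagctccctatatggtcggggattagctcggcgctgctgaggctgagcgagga
Each holds 2 GC boxes and no other of the motifs, and they hold 55.6% and 72.4% G and C.

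Among the pumps only Atp2b3 was called. Atp2a2, the SERCA pump of neurons and heart, had 12446 to 15107 in Veh (median 13851), 11624 to 15407 in Dox (median 13967) and 12460 to 15071 in Dox + ABT (median 13376), with differences of 0.00 (95% interval -0.13 to 0.13) and -0.03 (-0.16 to 0.10) from Veh. Atp2a3, a SERCA pump known from blood cells and endothelium, had 64.3 to 223 in Veh (median 107), 66.4 to 138 in Dox (median 102) and 67.5 to 202 in Dox + ABT (median 100), and Dox gave -0.19 (p = 0.393). The PMCA gene Atp2b3 had 3213 to 4565 in Veh (median 4169), 3630 to 6964 in Dox (median 4609) and 3332 to 4452 in Dox + ABT (median 3668). In Dox 5 of 8 rats lay above every Dox + ABT rat. Dox exceeded Dox + ABT by 0.31 ± 0.10 (1.24-fold; limma p = 0.00578, adjusted p = 0.220) and by 0.31 (p = 0.00638) with the ribosomal share as a covariate, and within the first kind of library by 0.13 (p = 0.227). Without Dox 5 the difference was 0.23 (p = 0.0174). Against Veh, Dox gave 0.18 (p = 0.0789) and Dox + ABT -0.13 (p = 0.196). Atp2b2 had 7151 to 13092 in Veh (median 10046), 8267 to 12425 in Dox (median 9956) and 10079 to 11414 in Dox + ABT (median 10807), and all 8 Dox + ABT rats lay above the Veh median (0.14, p = 0.203). Atp2b1 and Atp2b4 gave 0.09 and -0.25 in Dox.

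Single rats held many of the highest values. Dox 5 was the highest of all 26 rats for 8 members (17.4%, beside 10.3% of all tested genes): Atp2b1, Atp2b3, Cacna2d1, Cacng2, Scn2a, Scn3a, Scn3b and Scn9a. Its Atp2b1 value was 11330 beside a Dox median of 5369, and its Scn9a value 160 beside 67.7. Veh 11 was the highest for 7 members (15.2%, beside 5.01%), namely Cacna1c, Cacna1d, Cacna1e, Cacnb4, Itpr2, Ryr2 and Scn8a. Dox 2 was the highest for 6 of the 46 tested members, beside 8.74% of all tested genes, among them Ryr1 and Cacna1h. Red blood cell markers summed to 34975 in Dox 5, 49533 in Dox 7 and at most 12403 in any other rat, and their part in these values was not tested. The median coefficient of variation of the members was 21.9% within Veh, 22.7% within Dox and 16.7% within Dox + ABT, beside 21.1%, 21.5% and 16.9% over all tested genes.

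A larger share of members than of all tested genes was lower in the second kind of library. Most members were among the genes from which the kinds were found, so a division by kind partly follows from that. After the group means had been removed, 31 of 46 members (67.4%) were lower there, beside 49.1% of all tested genes, and the median difference was -0.23 beside 0.01. Per doubling of the ribosomal share, 13 members (28.3%, beside 12.3% of all tested genes) fell by more than 0.5 on the log2 scale. These were Ryr1 (-0.86), Ryr2 (-0.82), Cacna1c (-0.80), Cacna1d (-0.80), Ryr3 (-0.76), Cacna1e (-0.74), Scn8a (-0.74), Itpr2 (-0.70), Cacnb4 (-0.67), Cacna1b (-0.66), Scn4b (-0.65), Scn4a (-0.52) and Itpr3 (-0.50). Above 0.5 lay 3 members (6.52%), beside 2025 of all 15595 tested genes, among them Cacng2 (1.5) and Cacng3 (0.50), and Cacng4 gave 0.44. Scn3b (0.03), Atp2b3 (0.04), Cacna1s (0.07) and Atp2a2 (-0.02) had slopes near 0. The 49 members took 0.541% to 0.877% of all values in Veh, 0.699% to 0.924% in Dox and 0.716% to 0.895% in Dox + ABT, with medians of 0.701%, 0.845% and 0.860%. Mitochondrial genes took a median of 12.8% of all values in Veh (6.11% to 17.1%), 7.71% in Dox and 8.27% in Dox + ABT, with 6.16% in Veh 10 and 6.11% in Veh 11, and their part in the members' values was not tested. These are descriptions over 26 libraries with no test.

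**Figure D3:**
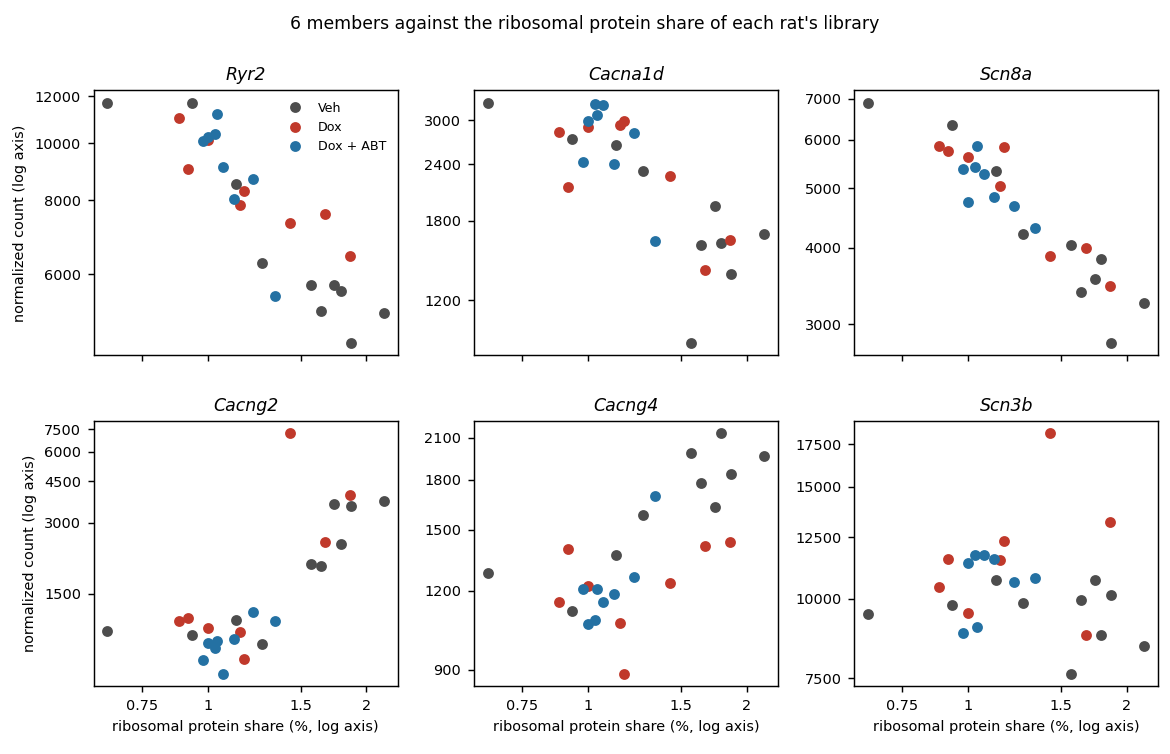
Normalized count of Ryr2, Cacna1d, Scn8a, Cacng2, Cacng4 and Scn3b (vertical, log axis) against the share of ribosomal protein genes in the same library in percent (horizontal, log axis), 1 point per rat, coloured by group. Ryr2, Cacna1d and Scn8a lie lower at higher shares, Cacng2 and Cacng4 lie higher, and the highest Scn3b point is Dox 5.

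**Figure D4:**
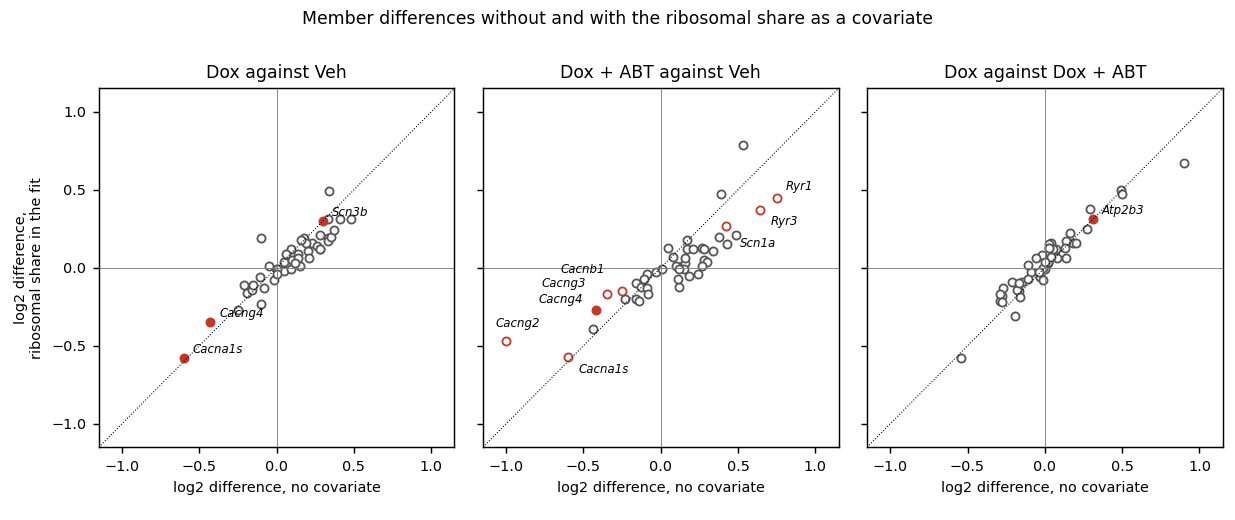
Log2 differences of the 46 tested members fitted without (horizontal) and with (vertical) the ribosomal share as a covariate, for each comparison; the dotted line marks equal values, red points were called without the covariate and filled red points also with it. In Dox + ABT against Veh 1 of 8 red points, Cacng4, is filled, and in Dox against Veh all 3 are.

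Partners of these channels were examined in 4 lists chosen by name. Of 19 genes of sodium channels and the axon initial segment, 1 was called in Dox against Veh (5.26%, beside 2.87% of all tested genes), 0 in Dox + ABT against Veh (7.84%) and 2 between the treated groups (10.5%, beside 4.03%). Fgf12, a growth factor homologue that binds sodium channels inside the cell, had 378 to 526 in Veh (median 439), 288 to 464 in Dox (median 369) and 321 to 465 in Dox + ABT (median 366), with differences of -0.26 in Dox (limma p = 0.00820, adjusted p = 0.323) and -0.26 (p = 0.0102) in Dox + ABT. The difference in Dox was -0.22 (p = 0.0144) with the ribosomal share as a covariate, which ended the call. It was -0.30 (p = 0.0122) within the first kind of library and -0.11 (p = 0.351) within the second. Its relative Fgf11 had 116 to 400 in Veh (median 163), 86.8 to 203 in Dox (median 138) and 170 to 265 in Dox + ABT (median 226). All 8 Dox rats lay below the Dox + ABT median and 6 below every Dox + ABT rat (-0.66 ± 0.20, p = 0.00230, adjusted p = 0.182). Unc79, a subunit of the sodium leak channel, was lower in Dox than in Dox + ABT (-0.30, p = 0.00931).

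The regulators of calcium channels gave 23 tested genes under 22 names, Calm2 standing for a pair of gene IDs, and 1 was called, between the treated groups (4.35%, beside 4.03% of all tested genes). Jph4, a junctophilin that holds the endoplasmic reticulum to the plasma membrane, had 3555 to 5387 in Veh (median 4729), 3589 to 6060 in Dox (median 5214) and 2217 to 4687 in Dox + ABT (median 3667). Dox exceeded Dox + ABT by 0.45 ± 0.13 (1.37-fold; limma p = 0.00167, adjusted p = 0.166), with 5 of 8 Dox rats above every Dox + ABT rat, and within the first kind of library by 0.31 (p = 0.0405). Jph3 gave 0.24 (p = 0.0288), and Gem, a small GTPase that inhibits calcium channels, gave -0.49 (p = 0.0474) in Dox against Veh.

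Of 21 genes of store-operated entry, calcium exchange and mitochondrial uptake, 5 were called in Dox + ABT against Veh (23.8%, beside 7.84% of all tested genes), 0 in Dox against Veh (2.87%) and 1 between the treated groups (4.76%, beside 4.03%). With the ribosomal share as a covariate 1 was called in Dox + ABT against Veh (4.76%, beside 2.52% of all tested genes). The potassium-dependent exchanger Slc24a3 had 1057 to 1510 in Veh (median 1262), 919 to 1417 in Dox (median 1157) and 839 to 1445 in Dox + ABT (median 950) and was lower in Dox + ABT (-0.35 ± 0.10, limma p = 0.00112, adjusted p = 0.109), and stayed called at -0.26 (p = 0.00694) with the covariate. Slc24a5 had 93.9 to 341 in Veh (median 229), 146 to 426 in Dox (median 260) and 252 to 434 in Dox + ABT (median 355) and was higher (0.70 ± 0.21, p = 0.00207, adjusted p = 0.109), and so was Slc24a2 (0.34, p = 0.00647). The covariate left 0.52 (p = 0.0139) for Slc24a5 and 0.17 (p = 0.0456) for Slc24a2, which ended both calls, and within the first kind of library Slc24a5 gave 0.34 (p = 0.0539). Letm1, a mitochondrial ion exchanger, was lower in Dox + ABT than in Veh (-0.30, p = 0.00331; with the covariate -0.19, p = 0.0220), and Dox exceeded Dox + ABT by 0.27 (p = 0.00962). Orai1, the pore of store-operated entry, was lower in Dox + ABT than in Veh (-0.59, p = 0.00958; with the covariate -0.25, p = 0.0748).

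Of 27 calcium buffers, sensors and kinases, 1 was called in Dox against Veh (3.70%, beside 2.87% of all tested genes), 0 in Dox + ABT against Veh (7.84%) and 3 between the treated groups (11.1%, beside 4.03%). Hpcal1, a neuronal calcium sensor, was lower in Dox than in Veh (-0.33, limma p = 0.00897), and the call was lost with the ribosomal share as a covariate (-0.29, p = 0.0161) and with the even split (-0.31, p = 0.0144). Camk2a and Camk2b, kinase subunits of synaptic plasticity, were higher in Dox than in Dox + ABT. Camk2a had 18578 to 30231 in Veh (median 23656), 17875 to 34386 in Dox (median 26036) and 17509 to 25903 in Dox + ABT (median 19256), a difference of 0.36 (p = 0.00693), and Camk2b had 27544 to 46437 in Veh (median 38580), 28644 to 54361 in Dox (median 43400) and 29259 to 40951 in Dox + ABT (median 32383), a difference of 0.34 (p = 0.00812). They were 0.55 (p = 8.62e-05) and 0.47 (p = 0.000238) within the first kind of library. Vsnl1, another calcium sensor, was lower in Dox than in Dox + ABT (-0.28, p = 0.00613), with all 8 Dox rats below the Dox + ABT median, and gave -0.23 (p = 0.0366) within the first kind. No partner gene had an adjusted p under 0.05. Slc24a2, Orai1 and Hpcal1 were named after their values had been seen.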

How the data were processed

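RNA was measured by poly(A) RNA-seq on an Ion Proton sequencer in the DG of 26 rats, grouped by the labels. Reads were aligned with STAR 2.5.3a to rn6, and the authors normalized gene counts by the Median Ratio method in Partek Flow. The deposited values are used here as a normalized signal, not as counts: 24012 rows for 17910 gene IDs, and rows of a gene ID were summed. Depth was estimated from the size of 1 read at low values. Because 26.7% (median over libraries) of the values of genes with several rows were whole reads within 0.02, no count test was run, and limma 3.58.1 (R 4.3.3) was fitted with a variance trend to log2(value + 1) of 15595 genes with a mean of 5 or more, over all 26 rats (23 residual degrees of freedom, two-sided). Calls used an unadjusted p under 0.01. Figures were drawn with matplotlib 3.10.9 in Python 3.11.15. The code was tested on simulated data.

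The members, partner lists and markers were chosen with earlier results of these data known. Genes named in the text are all members called in any comparison, for each role the gene with the highest normalized count in Veh and the smallest p in Dox against Veh, and the 3 smallest p of each partner list. Others were named after their values had been seen, and the values of a few genes are not reported here. Transcript lengths were not used here, so that levels are not compared between genes. Rats are separate animals, and each p-value sets a difference between groups against the spread between rats. It does not account for the uneven kinds of library or for the Veh rats belonging to another study.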

Additional observations from a re-analysis of the deposited data

Results flagged for a closer look

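In 7 of 105 groups of values, from 35 genes named in the text, a single rat lay farther from the others than Dixon's 95% critical value for the gap over the range, both taken on log2(normalized count + 1), and chance alone gives about 1 in 20. On the untransformed counts 4 of the 7 were past that value, and Ryr1, Ryr2 and Ryr3 were not (0.387, 0.444 and 0.465). Of the 7, 5 were Dox + ABT 4, the only second-kind library of its group. Its Cacng4 value was the highest of the group (1698 normalized counts, next 1264; ratio 0.631), and so was its Slc24a3 value (1445, next 1048; 0.591). Its Ryr3 (548, next 809; 0.552), Ryr1 (348, next 771; 0.560) and Ryr2 (5527, next 8042; 0.531) values were the lowest. Cacna2d3 was highest in Dox 14 (1680, next 1401; 0.569), and Fgf11 in Veh 6 (400, next 199; 0.562).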

How the results depend on the processing

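None of the 23 called differences that were refitted changed direction. With the ribosomal share as a covariate 6, 7 and 5 members that had not been called changed sign, among them Cacna1c (0.24 to -0.04), Itpr2 (0.12 to -0.12) and Cacnb4 (0.18 to -0.05) in Dox + ABT against Veh. Members called in Dox against Veh numbered 3, and 17 with a weight for each library (from 0.344 for Veh 11 to 2.99 for Veh 4), 1 with the compared groups alone, 13 with the largest-gap kind as a covariate, 11 in the 24 libraries of its larger side, 5 within the second kind, 1 by the exact permutation test, and 1 to 4 with 1 rat left out. In Dox + ABT against Veh 8 became 19 with library weights, 16 with the largest-gap covariate, 14 in the 24 libraries, 1 with the ribosomal share, 0 with the even split as a covariate, 0 within the first kind, 4 by the exact permutation test, and 3 to 10 with 1 rat left out. In Dox against Dox + ABT 1 became 0 under quantile normalization, 3 with library weights, 0 with the even split as a covariate, and 0 to 3 with 1 rat left out. The cause was not tested. The even split and the runs within its kinds were chosen after the data had been seen. Replicate numbers name different rats (deviations of same-numbered rats correlated at -0.22 to 0.44), and with a replicate block 4, 7 and 0 members were called (4.91%, 7.57% and 2.58% of all tested genes). Rescaling moved the median of all genes by -0.006 to 0.011. Levels per gene length, an alternative planned, were not run. Calls were lost when a single rat was left out, as follows, with the values then reached and the rats. The call of Cacna1s in Dox against Veh was lost (-0.59 to -0.49, p up to 0.0206; Veh 1, Veh 3, Veh 6, Veh 11, Dox 1, Dox 10, Dox 13, Dox 14). The call of Scn3b in Dox against Veh was lost (0.21 to 0.30, p up to 0.031; Veh 2, Veh 3, Veh 6, Veh 9, Veh 10, Veh 11, Veh 12, Dox 1, Dox 2, Dox 5, Dox 7, Dox 10, Dox + ABT 1, Dox + ABT 2, Dox + ABT 4, Dox + ABT 5). The call of Fgf12 in Dox against Veh was lost (-0.26 to -0.21, p up to 0.0274; Veh 1, Veh 2, Veh 5, Veh 9, Veh 12, Dox 1, Dox 2, Dox 9, Dox 10, Dox 13). The call of Cacna1s in Dox + ABT against Veh was lost (-0.57 to -0.54, p up to 0.0161; Veh 1, Veh 3, Veh 6, Veh 11, Dox + ABT 3, Dox + ABT 4, Dox + ABT 12). The call of Cacnb1 in Dox + ABT against Veh was lost (-0.23 to -0.21, p up to 0.0121; Veh 1, Veh 3, Veh 4, Veh 9, Dox + ABT 3, Dox + ABT 5, Dox + ABT 6, Dox + ABT 11). The call of Cacng2 in Dox + ABT against Veh was lost (-1.01 to -0.89, p up to 0.0182; Veh 1, Veh 2, Veh 3, Veh 4, Veh 9, Veh 12, Dox + ABT 2, Dox + ABT 3, Dox + ABT 5, Dox + ABT 6, Dox + ABT 11, Dox + ABT 12). The call of Cacng3 in Dox + ABT against Veh was lost (-0.34 to -0.31, p up to 0.0159; Veh 1, Veh 2, Veh 4, Dox + ABT 5, Dox + ABT 6, Dox + ABT 12). The call of Ryr1 in Dox + ABT against Veh was lost (0.63 to 0.77, p up to 0.0252; Veh 1, Veh 2, Veh 3, Veh 4, Veh 6, Veh 9, Veh 12, Dox 9, Dox 10, Dox 13, Dox + ABT 1, Dox + ABT 2, Dox + ABT 3, Dox + ABT 5, Dox + ABT 6, Dox + ABT 12). The call of Atp2b3 in Dox against Dox + ABT was lost (0.23 to 0.30, p up to 0.0174; Dox 5, Dox 7, Dox 14, Dox + ABT 1, Dox + ABT 2, Dox + ABT 3, Dox + ABT 4). The call of Unc79 in Dox against Dox + ABT was lost (-0.31 to -0.26, p up to 0.0236; Veh 2, Veh 4, Veh 6, Veh 12, Dox 1, Dox 2, Dox 7, Dox 10, Dox 14, Dox + ABT 1, Dox + ABT 2, Dox + ABT 3, Dox + ABT 5, Dox + ABT 6, Dox + ABT 11, Dox + ABT 12). The call of Letm1 in Dox against Dox + ABT was lost (0.23 to 0.27, p up to 0.0276; Veh 1, Veh 2, Veh 3, Veh 4, Veh 5, Veh 11, Dox 5, Dox 7, Dox 14, Dox + ABT 1, Dox + ABT 2, Dox + ABT 3, Dox + ABT 5, Dox + ABT 6, Dox + ABT 11). The call of Vsnl1 in Dox against Dox + ABT was lost (-0.28 to -0.24, p up to 0.0179; Dox 9, Dox 13, Dox 14, Dox + ABT 4, Dox + ABT 5, Dox + ABT 6, Dox + ABT 11). The call of Camk2a in Dox against Dox + ABT was lost (0.30 to 0.35, p up to 0.0206; Dox 2, Dox 9, Dox 10, Dox 13, Dox + ABT 1, Dox + ABT 2, Dox + ABT 5, Dox + ABT 6, Dox + ABT 11). The call of Camk2b in Dox against Dox + ABT was lost (0.29 to 0.35, p up to 0.0232; Dox 1, Dox 2, Dox 9, Dox 10, Dox 13, Dox 14, Dox + ABT 2, Dox + ABT 3, Dox + ABT 4, Dox + ABT 5, Dox + ABT 6, Dox + ABT 11).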
